A study of Mus musculus with 6 samples.

Results

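The cytosolic ribosomal protein genes were described in single cells of the mouse spinal cord. All gene symbols of the 6 count tables that name a large-subunit protein (Rpl), a small-subunit protein (Rps), a P-stalk protein (Rplp0, Rplp1, Rplp2) or Rpsa were taken, without the pseudogene entries. This gave 86 of the 17042 genes common to all tables, 51 of the large subunit with its stalk and 35 of the small subunit. The members were chosen by name, and the family was selected on measured values, since earlier results of these data had shown its summed share to differ between the groups. Therefore the shares by group are given as a description, without a test.

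The cords came from wild-type mice given vehicle (WT-Veh), mice with the SOD1-G93A transgene given vehicle (SOD1-Veh) and SOD1-G93A mice given Necrostatin-1s (SOD1-Nec), with 2 Drop-seq libraries each. SOD1-G93A is a mutant form of superoxide dismutase used to model amyotrophic lateral sclerosis, and Necrostatin-1s inhibits the kinase RIPK1. Age, strain, sex, dose and the promoter of the transgene were not given in the sources used here, and neither was whether a library held 1 animal or several. The p-values therefore measure the spread between these libraries, which may be technical.

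Each cytosolic ribosome holds a small subunit that reads the messenger RNA and a large subunit that joins amino acids, and nearly every ribosomal protein is needed once per ribosome, apart from the P1 and P2 stalk proteins, which bind as dimers. Their messenger RNAs are short and abundant, and their translation is regulated together, through the mTOR kinase, by a run of pyrimidines that begins with a C at the first base of the transcript (the 5′ terminal oligopyrimidine, or TOP, motif). Dividing and immature blood cells are known for high levels of these RNAs, while red cells and neutrophils lose ribosomes as they mature.

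Start sites of 63 of the 86 members were found in a RefSeq promoter table (build GRCm38.p6). A C followed by at least 4 pyrimidines, read on the sense strand from the annotated first base, was present in 13 of them (20.6%), against 3.01% of all 27025 genes in that table. With the C allowed within 5 bases of that base, it was present in 29 (46.0%), against 21.2% of all genes. The first 6 windows show a run at the first base, in members that the comparisons turn on. The last 2 show a run away from the first base (Rps26) and none (Rpl41). Each shows 15 bases before and 15 bases from an annotated start, 5′ to 3′ on the strand of the gene, with the run in capitals.
Rps21 (chr2:180257364-180257393, plus strand): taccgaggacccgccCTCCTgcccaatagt
Rplp2 (chr7:141447636-141447665, plus strand): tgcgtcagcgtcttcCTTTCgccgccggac
Rps15a (chr7:118116133-118116162, minus strand): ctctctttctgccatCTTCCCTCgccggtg
Rpl35 (chr2:39005117-39005146, minus strand): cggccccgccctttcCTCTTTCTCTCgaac
Rps6 (chr4:86857353-86857382, minus strand): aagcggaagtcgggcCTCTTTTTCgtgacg
Rps27 (chr3:90213634-90213663, minus strand): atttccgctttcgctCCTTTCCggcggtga
Rps26 (chr10:128626492-128626521, minus strand): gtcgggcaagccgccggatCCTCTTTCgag
Rpl41 (chr10:128549154-128549183, minus strand): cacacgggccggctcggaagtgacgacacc
Rps21 has 2 annotated starts, and the run was found at the start shown. Members that were high in one group and members that were low in it (Rpl35 and Rps21, described later) both carried such a run. Among other members described later, Rpl39 and Rpl12 had a run away from the first base. Rps12 and Rps19 had no run beginning within 5 bases of the start. A match describes these letters only.

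The libraries held 395 to 791 cells after barcodes with under 200 genes or over 20% mitochondrial UMIs (unique molecular identifiers, each standing for 1 captured RNA molecule) and marked doublets were left out, 3331 cells in all. Their summed depth was 429821 to 650663 UMIs per library, and 1 barcode was found in more than 1 library. Cells were clustered without the 86 members, and clusters were named from marker lists, which gave 15 classes and 1 unnamed cluster of 33 cells. Of the kept cells, 63 muscle cells were all from SOD1-Veh and 162 of 256 neurons were from WT-Veh 2. Microglia (603 cells), erythroid cells (557), B cells (434), neutrophils (412) and monocytes (292) had at least 20 cells in every library and were tested. Each class name means cells like that type by these markers.

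All 86 members had UMIs, but their levels differed widely. Rps29, a small zinc-binding protein of the small subunit, gave most UMIs (7487), followed by the stalk protein gene Rplp1 (6938), Rpl41, which encodes the smallest ribosomal protein (6711), and Rps27 (5771). Rpl13 (5124) and Rps9 (5071) were also among the highest. Counts were taken per transcript end, so UMIs were not divided by length, and they order captured molecules. The median member transcript was 886 bases long, against 2911 bases for the genes tested over all cells.

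At the other end, 5 members had under 100 UMIs. They were Rpl24 (97), Rps4y2 (86), Rps3a2 (80), Rpl3l (36) and Rpl39l (3). Rpl24 encodes a standard protein of the large subunit, and a second row spelled in capitals, outside the symbols used here, held only 6 to 19 UMIs per library. Ribosomal proteins have many near-identical pseudogenes, and 23 pseudogene rows held 0.0936% to 0.165% of UMIs per library. Reads that match several copies can be lost or split, so the levels of Rpl24, Rps3a2, Rps3a3 and Rps4y2 are uncertain.

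Paralogues had fewer UMIs than their parent genes over all cells. Rpl36al had 779 UMIs against 1888 of Rpl36a, Rpl22l1 926 against 2859 of Rpl22, and Rps27l had 668 against 5771 of Rps27. Rpl3l, the paralogue of Rpl3 that is specific to muscle, had 28 of its 36 UMIs in the muscle cells of SOD1-Veh, where it reached 430 CPM (UMI counts scaled to one common total) against 46.0 CPM of Rpl3. The same muscle cells held Rps27l at 752 CPM and Rps27 at 920 CPM, whereas B cells held 194 and 5586 CPM. The symbols Rpl10l, Rpl26l1 and Rps4l had no row in the tables, and other names of these genes were not searched.

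Over all kept cells, members made up 7.504% and 5.49% of UMIs for WT-Veh 1 and 2, 7.58% and 7.10% for SOD1-Veh, and 9.09% and 10.2% for SOD1-Nec. Both SOD1-Nec libraries lay above the other 4. The means were 6.499% ± 1.42, 7.34% ± 0.336 and 9.63% ± 0.767 (SD, n = 2 libraries per group). WT-Veh and SOD1-Veh overlapped, and the difference of 0.842 percentage points between them became -0.163 without WT-Veh 2. In a sum over cells, fewer cells of a class and less RNA per cell cannot be told apart, so shares were also taken within classes. Counting error was small beside these differences, with an exact (Clopper-Pearson) 95% binomial interval of 7.43% to 7.57% in WT-Veh 1 and of 9.01% to 9.17% in SOD1-Nec 1; such intervals cover counting error only.

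**Figure D1:**
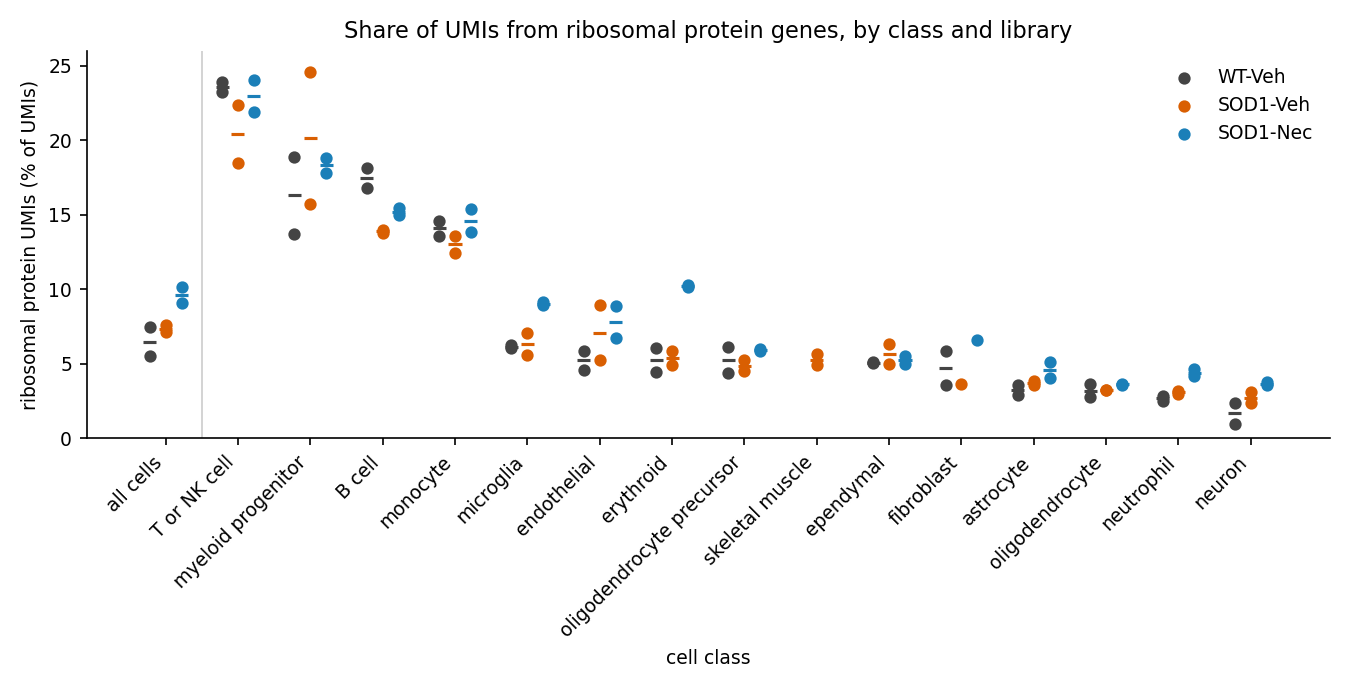
Share of UMIs from the 86 ribosomal protein genes (y axis, percent) in each cell class (x axis), with 1 point per library, coloured by group, and a line at the mean of 2 libraries. T or NK cells, myeloid progenitors, B cells and monocytes sit highest, and both SOD1-Nec libraries lie above the other 4 in microglia, erythroid cells, neutrophils, astrocytes and neurons.

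The classes differed widely in share. T or NK cells reached 18.5% to 24.04% over the 6 libraries, myeloid progenitors 13.7% to 24.6%, B cells 13.8% to 18.2% and monocytes 12.4% to 15.4%. There were 11 to 21 T or NK cells per library, with a pooled share of 22.3%. Myeloid progenitors numbered only 2 to 17 per library, with a pooled share of 18.6%, and their 24.6% came from 2 cells of SOD1-Veh 1. Among the resident cells of the cord, the shares were 5.62% to 9.14% in microglia, 4.61% to 8.95% in endothelial cells, 2.94% to 5.13% in astrocytes, 2.80% to 3.67% in oligodendrocytes and 0.988% to 3.78% in neurons. Both SOD1-Nec libraries were above the other 4 in astrocytes (4.04% and 5.13%, against at most 3.86%) and in neurons (3.56% and 3.78%, against at most 3.08%), from 10 to 29 astrocytes and 7 to 162 neurons per library. The order of B cells above monocytes, monocytes above microglia and microglia above neutrophils held in 6 of 6 libraries. Erythroid cells were above microglia in 3 libraries and below them in 3. Both erythroid cells and neutrophils held a cluster of high and a cluster of low share. Erythroid cells led by Car1, Hemgn and Klf1 had 8.01% to 13.8% and those led by haemoglobin genes 1.77% to 7.09%, while neutrophils led by Ngp and Camp had 2.77% to 4.83% and those led by Retnlg and Cxcr2 1.95% to 3.34%. Clusters rest on their other genes, not on the members.

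The test between classes set each class against the mean of the other 4 tested classes, with the library as a block (quasi-likelihood F test of edgeR, Benjamini-Hochberg adjusted p under 0.05). In neutrophils, 77 of 79 tested members were lower and 0 higher, against a background of 17.2% lower and 31.9% higher among 1538 genes. In B cells 65 of 79 were higher (background 22.6%) and 1 was lower, the paralogue Rps27l (background 28.2%). In monocytes 39 were higher and 0 lower (background 22.4% and 16.8%), and in microglia 45 were lower and 2 higher (background 29.5% and 31.4%). The median log2 difference of the members was -1.12 in neutrophils, 0.58 in B cells, 0.34 in monocytes and -0.37 in microglia, and the medians of all genes were 0.16, -0.12, 0.02 and -0.09. The erythroid and microglial results depended on the scaling. In erythroid cells 66 of 79 members were higher and 0 lower with TMM factors (background 31.2% and 35.1%), with a median of 0.62. Plain UMI totals gave 2 higher and 32 lower there, with a median of -0.25. Plain totals moved the median of all genes in erythroid cells from -0.171 to -0.996. In the other 4 classes the members' median kept its sign, at -1.68, 1.21, 0.98 and -0.24 in the same order. In microglia, however, plain totals left 19 of 79 members lower, where 360 of 1538 genes were lower, a similar share.

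**Figure D2:**
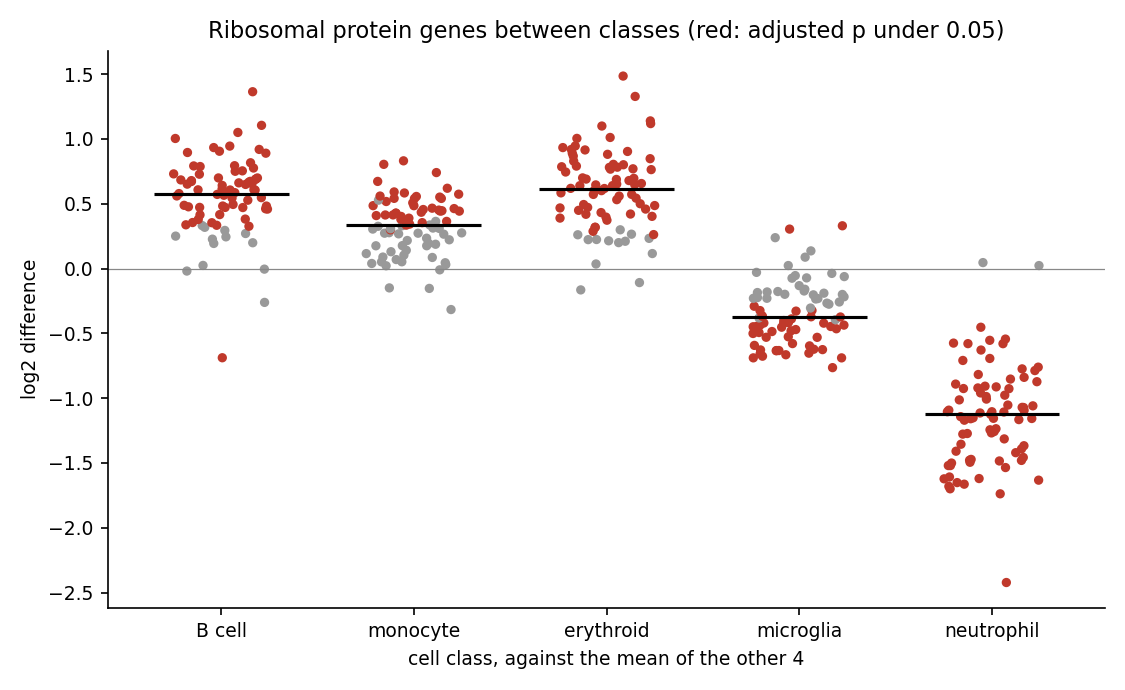
Log2 difference (y axis) of 79 ribosomal protein genes in each of 5 classes against the mean of the other 4 (x axis), 1 point per gene, red where the adjusted p was under 0.05, with a line at the median. The medians are 0.58 in B cells, 0.34 in monocytes, 0.62 in erythroid cells, -0.37 in microglia and -1.12 in neutrophils; the erythroid points fall below 0 with plain UMI totals.

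Single members departed from the family in each class. Rps27, a zinc-binding protein of the small subunit, stood furthest above the other members in B cells, with a log2 difference of 1.36 ± 0.11 (SE). It made up 27.9 to 42.7 of every 1000 member UMIs in B cells. Rps19, which is mutated in Diamond-Blackfan anaemia, followed in B cells at 1.10 ± 0.13. In erythroid cells Rps2 (1.48 ± 0.13) and the stalk protein gene Rplp0 (1.33 ± 0.13) led, and scaled to the members' summed UMIs they still passed there, at 0.93 and 0.78. In monocytes Rpl36al, the paralogue of Rpl36a (0.83 ± 0.20), and Rpsa, a protein of the small subunit also known as the laminin receptor (0.80 ± 0.13), stood highest.

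The only 2 members that were higher in microglia than in the other classes were Rplp1 (0.33 ± 0.11) and Rpl10 (0.30 ± 0.13), the large-subunit protein that completes its maturation. Rpl8 was furthest below the microglial median, at -0.76 ± 0.13. In neutrophils the lowest member was Rpl10a (-2.42 ± 0.27), at 0.388 to 2.83 of every 1000 member UMIs, followed by Rplp0 (-1.74 ± 0.18). Rps10 was the least reduced of the neutrophil calls, at -0.45 ± 0.15. The 2 members that did not pass there were Rps9 (0.02 ± 0.13) and Rps27a (0.05 ± 0.12).

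Within microglia, the member share was 6.28% and 6.03% for WT-Veh, 7.07% and 5.62% for SOD1-Veh, and 8.94% and 9.14% for SOD1-Nec. Both treated libraries were above the other 4, and SOD1-Veh surrounded WT-Veh. The microglia fell into 2 clusters. The one with fewer UMIs per cell had 7.47% and 7.28% for WT-Veh, 9.79% and 6.80% for SOD1-Veh and 9.87% and 9.29% for SOD1-Nec, where the last 2 groups overlapped. In the other the shares were 5.83% and 5.63%, 6.17% and 5.36%, and 8.01% and 8.97%, without overlap of SOD1-Nec and the rest. The share of the median cell had the same order of groups, at 6.09% and 5.37%, 6.93% and 4.91%, and 7.92% and 7.88%. The cluster with fewer UMIs per cell held 42 of 98 and 38 of 93 microglia in WT-Veh and 31 of 75 and 23 of 74 in SOD1-Veh. In SOD1-Nec it held 78 of 116 and 105 of 147.

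Other measures moved with treatment in microglia. Haemoglobin genes made up 2.88% to 4.46% of microglial UMIs in SOD1-Nec, 0.274% to 0.534% in SOD1-Veh and 0.997% to 1.37% in WT-Veh. The 9 erythroid markers summed to 28968 to 45188 CPM, 2786 to 5454 CPM and 10009 to 13909 CPM in the same order, with 0 of 9 at 0. Cells were shallower in SOD1-Nec, with a median of 475 to 517 UMIs against 605 to 866 in the other groups, and the 12 microglial markers were at 23886 to 25811 CPM against 30607 to 38755. The mitochondrial share of microglial UMIs was 6.71% to 6.85% in SOD1-Nec, 5.20% to 6.49% in SOD1-Veh and 4.33% to 4.85% in WT-Veh. Among the markers of other classes, those of oligodendrocytes (9, none at 0) summed to 11399 and 12566 CPM in SOD1-Nec against 5910 to 9362 CPM in the rest. Monocyte markers (9, with Ly6i at 0) summed to 167 and 205 CPM against 49.5 to 130 CPM. Myeloid progenitor markers (5, with Elane at 0) summed to 12.8 and 31.4 CPM against 0 in each other library, a level near the floor. T or NK cell markers, with 6 of 8 at 0, summed to 38.4 and 0 CPM in SOD1-Nec, against 0 to 29.7 CPM in the others. B cell markers summed to 333 to 355 CPM in SOD1-Nec, within the 172 to 446 CPM of the others, and 5 of 13 were at 0, Cd79a and Ms4a1 among them. With haemoglobin and mitochondrial genes taken out of the total, the member share was 10.1% in both SOD1-Nec libraries, 6.05% to 7.48% in SOD1-Veh and 6.40% to 6.67% in WT-Veh. Barcodes with under 100 genes had a lower member share in SOD1-Nec (1.88% and 1.504%) than in the other groups (2.31% to 3.52%). Haemoglobin genes made up 68.8% and 77.7% of their UMIs in SOD1-Nec, against 30.1% to 55.1% in the others. Without haemoglobin and mitochondrial genes in the total, their member share was 9.10% and 9.46% in SOD1-Nec, within the 7.41% to 9.50% of the others. The part of the cluster mix, cell depth, RNA quality and RNA of other classes in the result was not tested.

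Among single members in microglia, 20 of 79 rose in SOD1-Nec against SOD1-Veh and 0 fell, where 2.20% of the 1503 tested genes rose and 1.40% fell. The median log2 fold change was 0.52 for the members and -0.05 for all genes. The rise was spread over both subunits. UMIs were summed over both microglial clusters, whose mix was different in SOD1-Nec, and members were not tested within each cluster. Since the family was taken up with the group differences in view, this count and those that follow are descriptions.

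Rps21, a small-subunit protein, had the largest change. Its normalised level in microglia was 1206 and 1327 CPM for WT-Veh, 926 and 575 for SOD1-Veh, and 2401 and 2519 for SOD1-Nec. The treated libraries were above the other 4, and the untreated mutant libraries were below wild type. It rose by a log2 fold change of 1.69 ± 0.24 in SOD1-Nec against SOD1-Veh (edgeR, adjusted p = 2.02e-06).

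Rps26, a small-subunit protein at the exit of the messenger RNA channel, had 891 and 859 CPM, 926 and 513, and 1840 and 2056 in the same order. It rose by 1.41 ± 0.25 (adjusted p = 0.000181). Rpl30 rose by 1.38 ± 0.26 from 747 and 390 CPM in SOD1-Veh to 1525 and 1520 in SOD1-Nec. WT-Veh lay between them for Rpl30, at 769 and 950 CPM, and within SOD1-Veh for Rps26.

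Rps12 rose by 1.14 ± 0.22, Rpl39 by 1.27 ± 0.25, Rplp1 by 1.05 ± 0.22 and Rpl27a by 1.04 ± 0.25, all with SOD1-Nec libraries above SOD1-Veh. Rpl39 lines the exit tunnel of the large subunit. Rplp1 reached 4626 and 5459 CPM in SOD1-Nec against 3085 and 1744 in SOD1-Veh and 3391 and 3483 in WT-Veh, the highest level of these. Other called members were Rpl12, Rpl23, Rpl26, Rpl32, Rpl34, Rplp2, Rps13, Rps15, Rps15a, Rps20, Rps24 and Rps27a, which encodes a fusion of ubiquitin with a ribosomal protein. Rplp0, the core of the stalk, had a log2 fold change of -0.20 and Rpsa of 0.62, and neither passed.

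**Figure D3:**
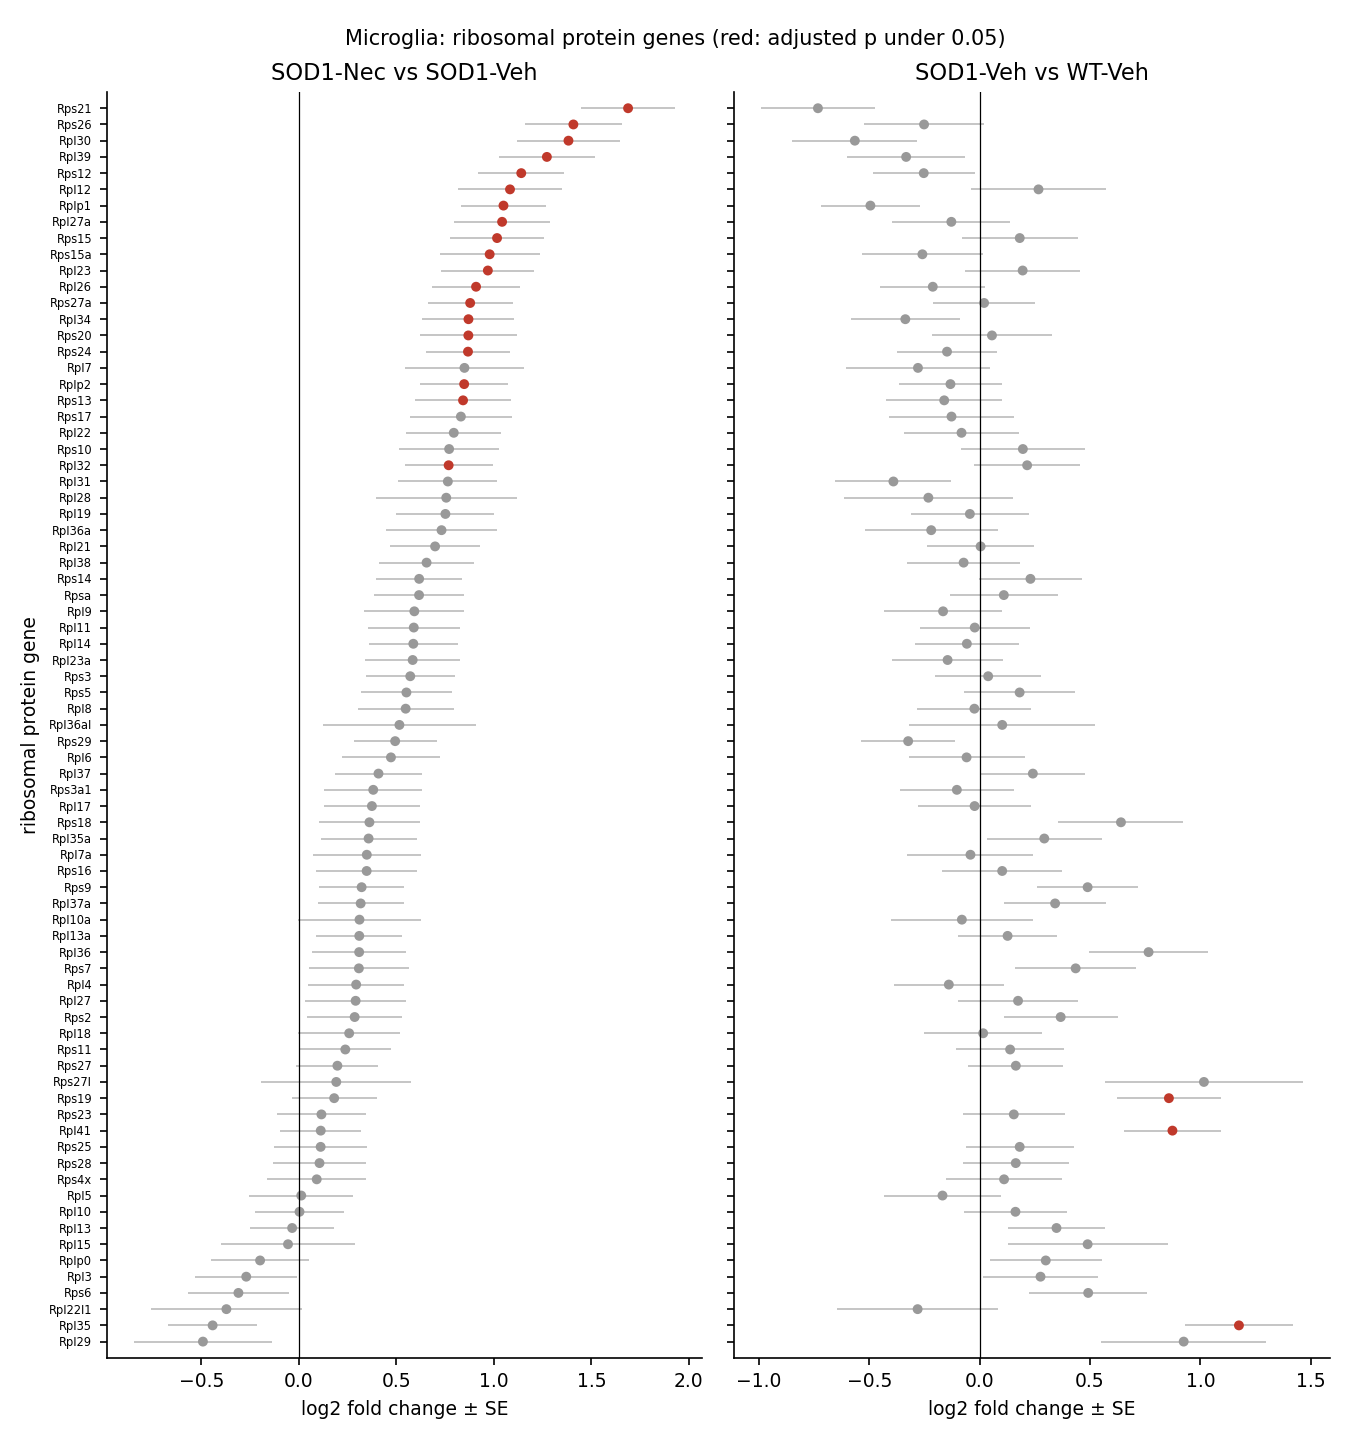
Log2 fold change with its SE (x axis) of 77 of the 79 tested ribosomal protein genes (y axis, ordered by the left panel) in microglia, for SOD1-Nec against SOD1-Veh (left) and SOD1-Veh against WT-Veh (right), red where the adjusted p was under 0.05. In the left panel 19 genes are red, all above 0, and in the right panel Rpl35, Rpl41 and Rps19 are; both panels use the SOD1-Veh libraries, so they are not independent.

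How many members passed rested on single libraries. Without SOD1-Veh 2, only 5 members passed, and without SOD1-Nec 2 there were 12. DESeq2 called 14. Rps21, Rps26 and Rpl39 passed in each of the 17 alternatives tried for microglia.

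Against WT-Veh, 25 of 79 members rose in SOD1-Nec microglia and 0 fell, where 3.93% of tested genes rose and 2.26% fell. The median was 0.61, with all genes at -0.0042. Rps15, Rpl12, Rpl23, Rps26, Rpl41, Rps19 and Rpl32 rose by 0.98 to 1.35. Rpl12 lies at the base of the stalk. Rps19 rose from 926 and 874 CPM to 1752 and 1940. The count was 12 without WT-Veh 2, 11 without SOD1-Nec 2 and 15 without WT-Veh 1, with DESeq2 or with no filter on low counts.

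SOD1-Veh differed from WT-Veh in 3 members in microglia, all of which rose, where 1.53% of genes rose. Rpl35, a large-subunit protein near the exit tunnel, had 717 and 724 CPM for WT-Veh and 1673 and 1580 for SOD1-Veh, a log2 fold change of 1.17 ± 0.24 (edgeR, adjusted p = 0.00126). Rpl41 had 1468 and 1327 CPM against 2647 and 2463 and rose by 0.87 ± 0.22 (adjusted p = 0.0153). Rps19 rose by 0.86 ± 0.24 (adjusted p = 0.0349). In SOD1-Nec, Rpl41 and Rps19 were as high as in SOD1-Veh or higher, at 2734 and 2794 CPM and at 1752 and 1940 CPM, whereas Rpl35 was lower, at 1051 and 1332 CPM. Rps21 gave -0.73 ± 0.26 (adjusted p = 0.18) and Rplp1 -0.49 ± 0.22 (adjusted p = 0.377). DESeq2 called 0 of the 3 and had 5 members at an unadjusted p under 0.05, against 10 of 79 in edgeR (background 11.1%), and without WT-Veh 1 or WT-Veh 2 there was 1.

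Over all cells, few members passed. Rps21 rose in SOD1-Nec against SOD1-Veh, 1 of 85 tested members where 0.0134% of 7482 genes rose, and 0 fell (background 0.535%). Its levels were 1045 and 866 CPM for WT-Veh, 801 and 633 for SOD1-Veh and 1715 and 1913 for SOD1-Nec, and the log2 fold change was 1.34 ± 0.27 (edgeR, adjusted p = 0.0416). The call was lost without any of the 4 libraries compared and also with at least 400 genes per cell, up to 40% mitochondrial UMIs, doublets kept, muscle cells left out, no filter on low counts or the members' summed UMIs as library size. Rpl12 gave 1.12 ± 0.29 (adjusted p = 0.186). Rpl3l had 10 and 21 UMIs for SOD1-Veh and 0 and 1 for SOD1-Nec (adjusted p = 0.0501), and 28 of its 36 UMIs in all libraries were in muscle cells, which were found in SOD1-Veh alone.

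In edgeR 0 of 85 members passed between SOD1-Veh and WT-Veh, with 6 at an unadjusted p under 0.05, and DESeq2 called 1. The background was 0.829%, and 10.4% at the unadjusted p. The nearest was Rpl35 (1.19 ± 0.29, adjusted p = 0.0986), at 728 and 523 CPM for WT-Veh and 1158 and 1696 for SOD1-Veh. Between SOD1-Nec and WT-Veh 0 passed in edgeR, 31 had an unadjusted p under 0.05 and DESeq2 called 1 (background 0.0401%, and 8.46% unadjusted). The log2 fold change was above 0 for 83 of 85 members, with a median of 0.52 against -0.01 for all genes.

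Erythroid cells, the precursors that make haemoglobin, had the largest difference in share. Members made up 6.09% and 4.44% of UMIs for WT-Veh, 4.92% and 5.87% for SOD1-Veh and 10.3% and 10.1% for SOD1-Nec. In the haemoglobin-led cluster these were 2.47% and 1.80%, 2.66% and 1.77%, and 7.09% and 6.26%, and in the Klf1 cluster 9.49% and 13.5%, 8.01% and 9.21%, and 12.7% and 13.8%. SOD1-Nec was above SOD1-Veh in both clusters. In the second it overlapped WT-Veh, where the 13.5% of WT-Veh 2 came from 9 cells. Haemoglobin moved the other way, at 34.9% and 37.9% of erythroid UMIs in SOD1-Nec against 50.5% to 57.1% in the other groups. Erythroid cells of SOD1-Nec were also shallower, with 653 and 697 UMIs in the median cell against 1327 to 1985.5. Mitochondrial genes made up 4.94% to 6.95% of erythroid UMIs in SOD1-Nec against 3.50% to 4.10% in the rest. With haemoglobin and mitochondrial genes out of the total, the share was 17.7% in both SOD1-Nec libraries, against 11.5% and 12.8% for SOD1-Veh and 13.6% and 11.3% for WT-Veh. The part of haemoglobin and depth in the difference was not tested.

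In erythroid cells 11 of 79 members rose in SOD1-Nec against SOD1-Veh and 0 fell, where 1.02% of 1470 genes rose and 1.22% fell. Rps21 had 664 and 488 CPM for SOD1-Veh and 1617 and 1551 for SOD1-Nec and rose by 1.47 ± 0.25 (edgeR, adjusted p = 0.00137). Rps20, Rps12, Rplp1, Rpl12, Rps15, Rpl39 and Rps26 rose by 1.00 to 1.54. Rps12 went from 1155 and 951 CPM to 2575 and 2600. The 11 became 0 without SOD1-Nec 1, 1 without SOD1-Nec 2, 20 without WT-Veh 1 or WT-Veh 2, 4 with up to 40% mitochondrial UMIs and 6 with no filter on low counts. It was 27 with plain UMI totals, which moved the median of all genes from -0.02 to 0.37. Against WT-Veh 4 members rose, Rps15, Rps12, Rps27a and Rps21, by 0.87 to 0.96 (background 0.476%), and there were 0 when WT-Veh 2 or either SOD1-Nec library was left out. Between SOD1-Veh and WT-Veh edgeR called 0 of 79, with 7 at an unadjusted p under 0.05, and DESeq2 called 0 (background 0.204%, and 8.16% unadjusted). Rplp1 gave -0.71 ± 0.23 and Rps6, the kinase target of the small subunit, 0.76 ± 0.26 there.

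B cells and monocytes, which have the highest shares of the tested classes, showed another order. In B cells the share was 18.2% and 16.8% for WT-Veh, 13.97% and 13.8% for SOD1-Veh, and 14.95% and 15.4% for SOD1-Nec, with no overlap of the 3 groups. The cluster led by Igkc and Ms4a1 had 22.9% and 18.9%, 17.3% and 14.2%, and 17.4% and 18.1%, and that led by Vpreb3 and Cd79b 14.6% and 15.2%, 12.1% and 13.6%, and 13.5% and 13.7%. Erythroid RNA in B cells also differed between the groups, with haemoglobin genes at 0.481% to 0.648% of UMIs in WT-Veh, 1.90% to 3.45% in SOD1-Veh and 3.26% to 3.63% in SOD1-Nec. The 9 erythroid markers summed there to 4865 to 6720 CPM in WT-Veh and 19147 to 36460 CPM in the mutant libraries, with 0 of 9 at 0. Without haemoglobin and mitochondrial genes in the total, the B cell share was 18.05% to 19.7% in WT-Veh, 15.3% to 15.6% in SOD1-Veh and 17.1% to 17.3% in SOD1-Nec, and the part of erythroid RNA was not tested. In monocytes the share was 14.6% and 13.6%, 13.6% and 12.4%, and 13.8% and 15.4%, so that WT-Veh and SOD1-Veh met at 13.6%. With up to 40% mitochondrial UMIs, SOD1-Veh monocytes were 0.217 percentage points above WT-Veh, against -1.08 otherwise, and coarser clusters also turned the sign, to 0.444.

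In B cells Rps21 and Rpl12 rose in SOD1-Nec against SOD1-Veh, 2 of 79 members where 0.317% of 947 genes rose. Rps21 had 2677 and 4182 CPM for WT-Veh, 1713 and 1566 for SOD1-Veh and 4420 and 3645 for SOD1-Nec (1.29 ± 0.28, edgeR, adjusted p = 0.0441). Rpl12 had 2269 and 2568, 1258 and 769, and 2178 and 2759 CPM (1.31 ± 0.29, adjusted p = 0.0441). For both, WT-Veh and SOD1-Nec overlapped and SOD1-Veh was lowest, and both calls were lost without any of the 4 libraries compared, in DESeq2 and with coarser clusters. Rpl35 gave -0.97 ± 0.28 (adjusted p = 0.131), and it was highest in SOD1-Veh, at 3146 and 4779 CPM. In the other comparisons of B cells 0 of 79 passed in edgeR and in DESeq2 (background 0.634% in each), with 13 members at an unadjusted p under 0.05 between SOD1-Veh and WT-Veh (background 9.93%) and 3 between SOD1-Nec and WT-Veh (8.24%).

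In monocytes Rpl12 fell in SOD1-Veh against WT-Veh, 1 of 79 members where 1.10% of 821 genes fell. It had 1360 and 1432 CPM for WT-Veh, 378 and 472 for SOD1-Veh and 1285 and 1267 for SOD1-Nec, a log2 fold change of -1.71 ± 0.42 (edgeR, adjusted p = 0.036). The call was lost without any of the 4 libraries compared and in DESeq2, and the fold change was -0.56 with up to 40% mitochondrial UMIs, -0.96 with doublets kept and -0.76 with coarser clusters. Rpl35 gave 0.98 ± 0.27 (adjusted p = 0.0794) in that comparison and -1.02 ± 0.26 (adjusted p = 0.0584) in SOD1-Nec against SOD1-Veh, from 3212 and 4722 CPM to 1970 and 1900. Between SOD1-Nec and SOD1-Veh, and between SOD1-Nec and WT-Veh, 0 passed in edgeR or DESeq2 (background 0.974% and 0.122%), with 18 and 7 at an unadjusted p under 0.05 (background 10.6% and 8.89%).

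In neutrophils the share was low in every library but ordered by group, at 2.85% and 2.52% for WT-Veh, 3.01% and 3.20% for SOD1-Veh, and 4.15% and 4.67% for SOD1-Nec. Haemoglobin genes made up 0.899% to 1.78% of neutrophil UMIs in WT-Veh, 0.314% to 2.53% in SOD1-Veh and 2.86% to 4.36% in SOD1-Nec. Without haemoglobin and mitochondrial genes in the total, the share was 2.66% to 3.03%, 3.17% to 3.52% and 4.61% to 5.11% in the same order. The part of erythroid RNA was not tested. The share in the Ngp and Camp cluster was 4.43% and 4.83% in SOD1-Nec against 2.77% to 4.22% in the rest. That cluster held 55 of 79 and 67 of 79 neutrophils in SOD1-Nec, 43 of 92 and 34 of 61 in WT-Veh, and 18 of 51 and 18 of 50 in SOD1-Veh. In the Retnlg and Cxcr2 cluster the share was 2.29% and 1.95% for WT-Veh and 2.51% and 2.02% for SOD1-Veh, which overlapped. It was 3.34% and 2.93% for SOD1-Nec there. No member passed in the 3 comparisons (0 of 73 in edgeR and in DESeq2, background 0.119%, 0% and 0.119%). Unadjusted p-values under 0.05 numbered 6, 26 and 33 for SOD1-Veh against WT-Veh, SOD1-Nec against SOD1-Veh and SOD1-Nec against WT-Veh (background 6.52%, 11.6% and 17.8%). Rps21 had 421 and 429 CPM for SOD1-Veh and 1217 and 1435 for SOD1-Nec (1.64 ± 0.32, adjusted p = 0.159).

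Whether a group effect on a member differed between classes was tested directly, each class against the mean of the other 4. In all 15 comparisons 0 of 79 members passed in edgeR, where 0% to 1.43% of 1538 genes did. In B cells, erythroid cells, microglia, monocytes and neutrophils in turn, the background was 0.26%, 0.195%, 0.065%, 0.325% and 0.13% for SOD1-Veh against WT-Veh. It was 0.065%, 1.43%, 0.39%, 0% and 0% for SOD1-Nec against SOD1-Veh, and 0.26%, 1.37%, 0.195%, 0.065% and 0% for SOD1-Nec against WT-Veh. Among the members, 0 to 17 of 79 had an unadjusted p under 0.05, where 68 to 131 of 1538 genes did. The 17 were for SOD1-Nec against WT-Veh in B cells, where 100 of 1538 genes passed. No other tool was run on this term. A missed threshold with 2 libraries per group does not show that the classes respond alike.

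The levels of single members were not all ordered alike over the groups. Members were therefore also expressed per 1000 member UMIs of a library, which takes out the summed share. Over all cells, Rpl35 made up 9.08 and 9.47 of every 1000 for WT-Veh, 14.6 and 21.6 for SOD1-Veh, and 8.95 and 8.85 for SOD1-Nec. Rps21 made up 13.03 and 15.7, 10.1 and 8.06, and 18.6 and 17.7. The SOD1-Veh libraries were thus high in one and low in the other, and SOD1-Veh 2 was the more extreme in both. Both members were picked after their values were seen.

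Some other members were also lowest or highest in both SOD1-Veh libraries. Rplp1 was at 26.7 and 30.4, 23.5 and 17.4, and 30.4 and 32.8 per 1000, and Rps12, Rps26, Rpl39 and Rpl12 were also lowest in both SOD1-Veh libraries. Rps6 was at 7.38 and 8.97, 10.1 and 14.3, and 6.34 and 6.92, and Rps23 and Rpl41 were also highest in both. In this unit 18 of 86 members were lowest and 20 highest in both SOD1-Veh libraries. Since the members of a library always sum to 1000, a fall of some raises others. As normalised CPM, where the summed share is left in, 1 of 85 tested members (1.18%) was lowest and 5 (5.88%) were highest. Both are smaller shares than the 8.23% and 9.57% among all 7482 genes. No share over all genes was taken in the first unit. By class, Rps21 was lowest in both SOD1-Veh libraries in 5 of 5 tested classes, Rplp1 and Rps26 in 4, and Rpl35, Rps23 and Rpl10 were highest in 4. These members were picked after their values were seen, and the classes share their libraries.

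**Figure D4:**
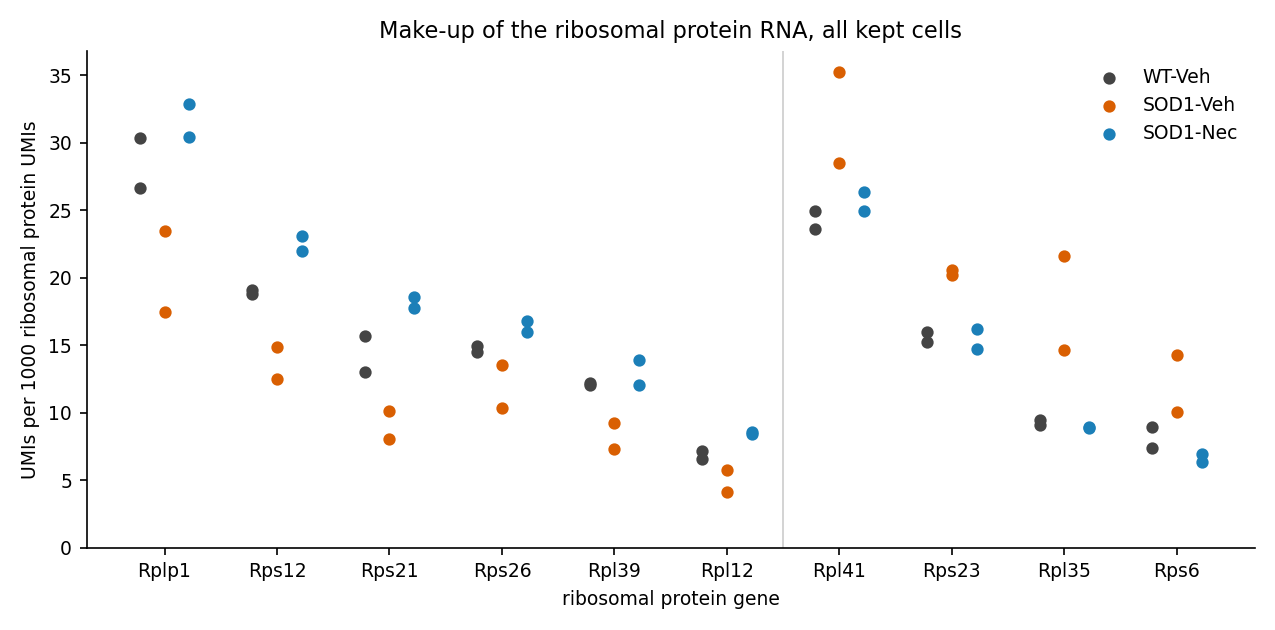
UMIs of 10 members per 1000 ribosomal protein UMIs (y axis) over all kept cells, 1 point per library, coloured by group; genes on the x axis were picked after their values were seen, those left of the line for being lowest and those right of it for being highest in both SOD1-Veh libraries. Rps21 lies at 8.06 to 10.1 in SOD1-Veh and at 13.03 to 18.6 in the rest, and Rpl35 at 14.6 to 21.6 and at 8.85 to 9.47.

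With the members' summed UMIs as the library size, the edgeR test asks which members changed relative to the family. In microglia 9 of 79 differed between SOD1-Nec and SOD1-Veh (background 15.4%). Rps21 (1.16 ± 0.26), Rps26 (0.88 ± 0.26), Rpl30 (0.86 ± 0.28) and Rpl39 (0.72 ± 0.27) were relatively higher in SOD1-Nec, and Rpl35 (-0.99 ± 0.25), Rpl29 (-1.03 ± 0.38), Rps6 (-0.86 ± 0.28), Rpl3 (-0.82 ± 0.27) and Rplp0 (-0.75 ± 0.27) relatively lower. Against WT-Veh 3 of 79 differed (background 22.2%), Rpl12 being relatively higher (0.75 ± 0.29) and Rpl22l1 (-1.25 ± 0.37) and Rpl5 (-0.76 ± 0.28) relatively lower. In erythroid cells 7 of 79 differed (background 11.8%), with Rpl12, Rps20, Rps21 and Rps12 relatively higher and Rpl35, Rps6 and Rpl15 relatively lower. Both counts are a smaller share of the members than the background. Of the genes called on this scale, 223 of 232 in microglia and 167 of 173 in erythroid cells were lower. Rpl35 was relatively higher in SOD1-Veh than in WT-Veh in microglia (1.11 ± 0.27, 1 of 79, background 1.53%) and, with Rpl12 relatively lower, in monocytes (1.12 ± 0.28, 2 of 79, background 1.83%), and in monocytes it was relatively lower for SOD1-Nec than for SOD1-Veh (1 of 79, background 1.22%).

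The ratio of Rpl35 to Rps21 UMIs needs no scaling. Both genes were picked after their values were seen, for being high and low in SOD1-Veh. A ratio that sets SOD1-Veh apart therefore follows from the choice, and the classes and barcode sets share their libraries. Over all cells it was 0.697 and 0.604 for WT-Veh, 1.45 and 2.68 for SOD1-Veh, and 0.482 and 0.499 for SOD1-Nec. In microglia it was 0.594 and 0.545, 1.81 and 2.75, and 0.438 and 0.529, and in monocytes 0.812 and 0.795, 1.42 and 3.33, and 0.570 and 0.458. In every tested class both SOD1-Veh libraries were above the other 4. The same order was present in barcodes with under 100 genes, at 0.453 and 0.318, 0.565 and 1.67, and 0.168 and 0.288. The part of library preparation in this ratio was not tested.

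**Figure D5:**
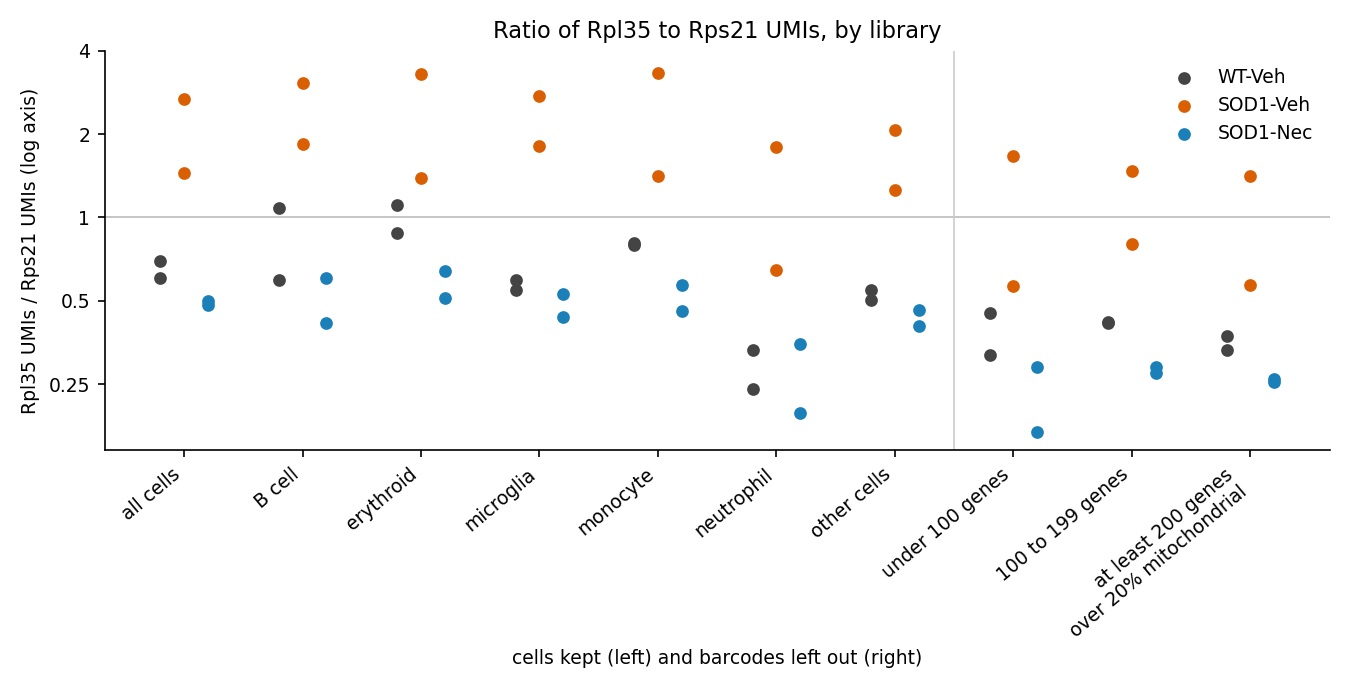
Ratio of Rpl35 to Rps21 UMIs (y axis, log scale) in kept cells by class and in 3 sets of barcodes left out (x axis), 1 point per library, coloured by group. The SOD1-Veh points are above the others in each set, at 1.45 and 2.68 over all cells against 0.482 to 0.697. Both genes were picked after their values were seen, and the sets share their libraries.

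Genes that work with ribosomal proteins were looked up from lists of names. Of 24 other TOP messenger RNAs (translation elongation factors and similar), 18 were tested in microglia. Tpt1, a growth-related calcium-binding protein, rose in SOD1-Nec against SOD1-Veh (1.05 ± 0.23, edgeR, adjusted p = 0.0029), 1 of 18 where 2.20% of all genes rose, from 1218 and 841 CPM to 2120 and 2186. Against WT-Veh, Pabpc1, the poly(A)-binding protein, Tpt1 and Fau, which encodes a fusion that gives ribosomal protein S30, rose by 0.72 to 0.79, 3 of 18, where 3.93% of all genes rose, and 0 fell. The median of the list was 0.29 and 0.30 in these comparisons. In erythroid cells Eef1b2, an exchange factor of elongation, rose in SOD1-Nec against SOD1-Veh (1.66 ± 0.34, adjusted p = 0.00582), 1 of 18, where 1.02% of all genes rose.

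Initiation factors, which load messenger RNA onto ribosomes, did not pass in microglia (0 of 13), with a median of 0.35 in SOD1-Veh against WT-Veh and -0.40 in SOD1-Nec against SOD1-Veh. In erythroid cells of SOD1-Nec against WT-Veh, Eif5b rose (1.26 ± 0.35) and Eif5 fell (-1.28 ± 0.27), 2 of 18, where 0.476% of all genes rose and 2.59% fell. Ribosome assembly factors gave 0 of 21 over all cells and 0 of 5 in microglia. Regulators of ribosomal protein messenger RNAs gave 0 of 13 over all cells in each comparison. Mitochondrial ribosomal proteins, which build the separate ribosome of mitochondria, gave 1 of 70 over all cells, Mrpl42, which rose in SOD1-Veh against WT-Veh (1.64 ± 0.35, adjusted p = 0.0439), where 0.668% of all genes rose. Their median was 0.38 in that comparison and -0.16 in SOD1-Nec against SOD1-Veh, against 0.17 and 0.28 for the cytosolic members, and all genes were at 0.01 and -0.01.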

How the data were processed

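Cells were captured by Drop-seq from cords that had been digested, freed of myelin and separated on a density gradient, per the labels' protocols. The authors deposited 1 table of UMI counts per library (gene symbol by cell barcode), without normalization. The submitters' processing notes name the build mm9, and the aligner is not given in the sources used here. Tables numbered 1 list 18169 genes and those numbered 2 list 18650.

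Of 21919 barcodes, 3360 passed the filter, and Scrublet in scanpy 1.11.5 marked 29 as doublets. Cells were scaled to 10000, and 2000 variable genes without the members, 30 components and 15 neighbours went into Leiden clustering (leidenalg 0.10.2, resolution 1). UMIs were summed per library and class and tested with edgeR 4.0.16 (R 4.3.3; TMM, filterByExpr, group as the only term, all 6 libraries, p adjusted over all genes); DESeq2 1.42.0 was an alternative. CPM levels of single members in group comparisons are TMM-normalised; classes and paralogues are given as plain CPM. The edgeR step was tested on simulated data. Exact permutation of 2 against 2 libraries cannot go below p = 0.333.

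Named members are, per comparison, up to 8 risen and 8 fallen by smallest p, or where under 4 passed also the 2 nearest each way; Rplp0, Rplp1, Rplp2, Rpsa, Rps27a, Rpl41 and paralogues were always looked up, and up to 4 members above and below the median per class. The members and lists were chosen with earlier results of these data known. Some members are not reported by name here.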

Additional observations from a re-analysis of the deposited data

Results flagged for a closer look

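The member share differed between the groups in opposite directions in different classes, with every library of a group on the same side, and the difference between the classes was not tested. Between SOD1-Veh and WT-Veh the share was lower in B cells (-3.60 percentage points) and monocytes (-1.08) and higher in neutrophils (0.42). In monocytes the nearest libraries of the groups met at 13.6%, and the sign turned to 0.22 and 0.44 with up to 40% mitochondrial UMIs and with coarser clusters. Between SOD1-Nec and WT-Veh it was lower in B cells (-2.28) and higher in erythroid cells (4.94), microglia (2.88) and neutrophils (1.73).

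Barcodes that were left out of the comparisons also held member UMIs at shares that differed from those of WT-Veh. With under 100 genes, the share in SOD1-Veh was 0.86 percentage points above WT-Veh. With at least 200 genes and over 20% mitochondrial UMIs, SOD1-Nec was 1.84 above WT-Veh, and with at least 100 but under 200 genes it was 1.10 above. In the last set the shares were 2.52% and 2.15% for WT-Veh, 1.86% and 1.77% for SOD1-Veh, and 3.61% and 3.26% for SOD1-Nec.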

How the results depend on the processing

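Of the differences in share, that of SOD1-Veh from WT-Veh over all cells turned from 0.84 to -0.16 percentage points without WT-Veh 2 (range without 1 library -0.16 to 1.85), and in erythroid cells to -0.26 without mitochondrial and haemoglobin genes in the total. In monocytes it turned to 0.22 with up to 40% mitochondrial UMIs and 0.44 with coarser clusters (Leiden resolution 0.5), and SOD1-Nec against SOD1-Veh to -0.13 and -0.27. The cause was not tested.

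Over all cells, 0 members passed for SOD1-Veh against WT-Veh (1 in DESeq2, 0 to 1 without 1 library), and 0 for SOD1-Nec against WT-Veh (1 in DESeq2). For SOD1-Nec against SOD1-Veh the 1 call became 2 with TMM factors from the other genes or without neurons, 0 with the members' UMIs as library size, no filter on low counts, at least 400 genes, up to 40% mitochondrial UMIs, doublets kept or no muscle cells, and 0 to 2 without 1 library.

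In microglia the 3 calls for SOD1-Veh against WT-Veh became 1 with the members' UMIs as library size, no filter or at least 400 genes, 0 in DESeq2, and 1 to 3 without 1 library. The 20 calls for SOD1-Nec against SOD1-Veh became 9 with the members' UMIs as library size, of which 4 were higher and 5 lower, and 5 to 21 without 1 library. The 25 against WT-Veh became 3 with the members' UMIs (1 higher, 2 lower), 15 with no filter, 15 in DESeq2 and 11 to 31 without 1 library.

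Summed over the 5 classes, the 4 calls for SOD1-Veh against WT-Veh became 1 with no filter, 0 in DESeq2, 2 with doublets kept, 2 with coarser clusters and 1 to 5 without 1 library. The 33 for SOD1-Nec against SOD1-Veh became 17 with the members' UMIs (8 higher, 9 lower) and 14 to 56 without 1 library. The 29 against WT-Veh became 55 with plain totals, 3 with the members' UMIs, 15 with no filter, 16 in DESeq2 and 11 to 42 without 1 library.

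Between classes, the calls in either direction went with the members' UMIs as library size from 66 to 19 in B cells, 66 to 26 in erythroid cells, 47 to 16 in microglia, 39 to 9 in monocytes and 77 to 34 in neutrophils. Plain totals gave 34 in erythroid cells, 21 in microglia and 78 in monocytes. No filter gave 20 in microglia and 25 in monocytes, where up to 40% mitochondrial UMIs gave 60 and coarser clusters 62.

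Libraries of the groups share the numbers 1 and 2. Deviations of same-numbered libraries correlated at -0.18, 0.18 and -0.24, which did not show a pairing. With 2 libraries per group these values could not exclude one, and same-numbered tables list the same number of genes. What else they share was not given in the sources used here. Within each number the member share was higher in SOD1-Nec than in SOD1-Veh over all cells and in microglia, erythroid cells and neutrophils. With the replicate number as a block, the calls were 0 over all cells for SOD1-Nec against SOD1-Veh and 3, 19 and 23 in microglia for SOD1-Veh against WT-Veh, SOD1-Nec against SOD1-Veh and SOD1-Nec against WT-Veh. Summed over classes they were 5, 37 and 32.

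For single called members, 796 values under alternatives kept the call, 325 lost it and 0 changed sign. Depth limits members with under 100 UMIs, and with 2 libraries per group a missed threshold is no sign of equal levels.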
